A study of Homo sapiens with 18 samples.

Results

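The early transcriptional response to estradiol (E2) after p53 knockdown was followed in the cell line PEO1, which derives from a human high-grade serous ovarian carcinoma and which the series title describes as carrying mutant p53. The tested samples were 3 libraries from cells given an siRNA against p53 (sip53) and 10 nM E2 for 2 h, and they were set against 3 libraries from sip53 cells without E2 (0 h), 6 of the 18 samples of the series. Those libraries were taken by their labels, and all 15318 genes with enough counts were tested. For reference, 3 siControl libraries with E2 for 2 h and 3 siControl libraries at 0 h, which received a control siRNA, gave the same contrast without p53 knockdown, and 3 sip53 libraries with E2 for 8 h gave the later time. All cells had been kept for 48 h in phenol red-free medium with charcoal-stripped serum, which is depleted of steroid hormones. No group in either siRNA arm was labelled as given solvent without E2 for 2 h or 8 h. An effect of E2 therefore cannot be told apart from elapsed time or handling. The model is 1 cell line with 1 sip53 label, and the labels do not name the siRNA sequence. Separate cultures for the 3 samples of a group are not stated either, so the p-values cover only the spread between these libraries, and that spread may be technical.

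Estradiol enters the cell and binds estrogen receptor alpha, the product of ESR1, a ligand-activated transcription factor. The bound receptor attaches to estrogen response elements in DNA, or joins other factors such as AP-1, and recruits coregulators that raise or lower transcription. Genes that change within the first hours include direct targets of the receptor, and some of their products are themselves transcription factors. The tumour suppressor p53 is also a transcription factor, and it has been described as a binding partner of the receptor.

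RNA was read from the 3' ends of transcripts, and a level is given here as a count scaled for library size and composition (TMM-normalised CPM). Total counts were 9557952 to 11183488 in the sip53 2 h libraries and 9225939 to 10290764 in the sip53 0 h libraries. Replicate 1 of sip53 0 h stood apart, at -57.5 on the first principal component of these 6 libraries (25.4% of the variance) against 4.2 to 23.2 for the other 5. Ovarian carcinoma markers were present, with 11 of 12 detected and SOX17 at 0 counts in all 6 libraries. Their summed level, mainly the keratins KRT7, KRT18 and KRT19, was 6800 to 7580 CPM at 2 h and 6230 to 7170 CPM at 0 h. Mean levels at 2 h were 112 CPM for PAX8, 33.1 for MUC16, 13.8 for WT1 and 1.19 for MECOM. Of 10 fibroblast markers 6 were at 0, among them DCN, LUM and COL1A2, and of 10 leukocyte markers 7 were at 0, among them PTPRC, CD3D and CD3E. The summed fibroblast list, mainly THY1, was 121 to 137 CPM at 2 h and 100 to 131 CPM at 0 h, and the summed leukocyte list was 14.5 to 17.1 CPM at 2 h and 14.1 to 16.7 CPM at 0 h.

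After 2 h of E2, 41 genes were higher and 6 were lower in sip53 cells than at 0 h, by edgeR's quasi-likelihood test with a Benjamini-Hochberg adjusted p under 0.05 over all genes. These were 0.268% and 0.0392% of the genes tested. At an unadjusted p under 0.05 the same fit had 454 genes higher and 685 lower, and the median log2 fold change of all genes was -0.006. The genes that rose included CISH, a brake on cytokine signalling, the transcription factors TFAP2C, SOX7, KLF4 and MYC, the Ras activator RASGRP1, the carnitine transporter SLC22A5 and tissue factor F3. Of the 41, 23 rose at least 2-fold and 18 rose less, and the log2 fold changes ran from 0.41 to 3.89. In bulk RNA, a change in every cell cannot be told apart from a larger change in some of the cells.

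In all 47 called genes the 3 libraries at 2 h lay on 1 side of the 3 at 0 h, which was also true of 8.04% of all genes in the upward direction and 7.12% in the downward direction. 45 of the 47 were protein-coding genes, and the others were MIR205HG, a microRNA host gene, and a row known only as transcript ENST00000541740. That row rose by 2.12 ± 0.25 on the log2 scale, and no gene name is given to it here.

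**Figure D1:**
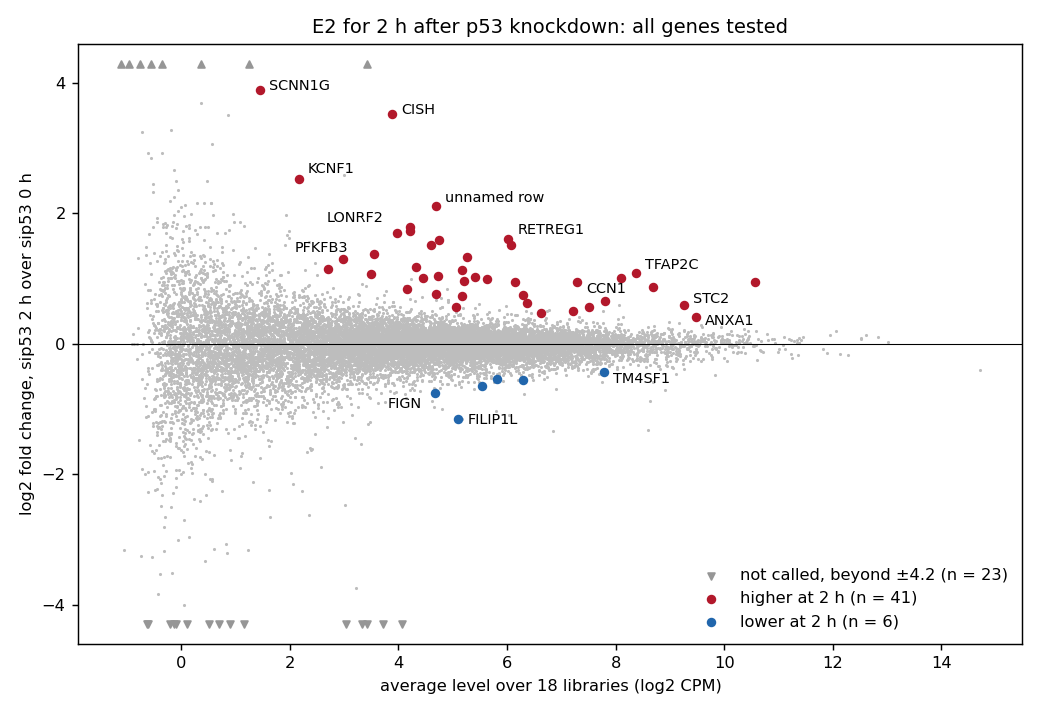
Log2 fold change of sip53 2 h over sip53 0 h (vertical axis) against the average level over 18 libraries in log2 CPM (horizontal axis) for 15318 genes. Red points are the 41 genes called higher, blue points the 6 called lower, grey points the genes not called, and 23 uncalled genes beyond a log2 fold change of 4.2 in size are drawn as triangles at the edges. The called genes reach 3.89 upward, whereas the lowest stands at -1.15.

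CISH had the smallest p-value of all genes. It encodes a SOCS-family protein that cytokine receptors induce through STAT5 and that dampens their signal, and it is also a known estrogen-responsive gene. CISH stood at 26.5, 26.0 and 28.0 CPM in the sip53 2 h libraries, against 1.80, 2.35 and 2.80 CPM in the sip53 0 h libraries. Each 2 h library was far above each 0 h library, and the means were 11.5-fold apart. The log2 fold change was 3.53 ± 0.21 (standard error, SE; edgeR quasi-likelihood adjusted p = 6.7e-10). In siControl cells CISH rose by 3.16 on the log2 scale, to 18.5, 16.6 and 22.7 CPM at 2 h, against 2.70, 1.92 and 1.71 CPM at 0 h.

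The start of CISH lies on the minus strand of chromosome 3, and 160 bases upstream of it are shown because they hold several copies of the STAT-type letters TTCNNNGAA. The sequence is from RefSeq (GRCh38.p14), chr3:50611865-50612024, minus strand, 250 to 91 bases before the start, with each TTCNNNGAA in capitals.
CISH: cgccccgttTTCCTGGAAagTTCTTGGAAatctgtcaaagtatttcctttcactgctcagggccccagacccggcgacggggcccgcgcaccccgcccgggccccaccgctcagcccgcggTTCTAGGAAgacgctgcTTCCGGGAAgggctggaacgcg
There were 4 copies in this stretch, and no estrogen response element, full or core alone, in the 300-base window around the start.

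CISH was the 1 called of 21 tested members of the cytokine list, whose median log2 fold change was 0.03. At an unadjusted p under 0.05 the list had 1 higher, CISH itself, and 2 lower. SOCS1, a related brake on cytokine signalling, had the lowest value, -0.98 ± 0.55 (adjusted p = 0.731). SOCS2, another STAT5 target, stood at 3.82, 7.27 and 2.98 CPM at 2 h and 3.49, 2.57 and 4.66 CPM at 0 h, which overlap. SOCS3 was 13.2, 12.1 and 10.2 CPM at 2 h against 16.1, 18.3 and 15.1 CPM at 0 h, without overlap, and its log2 fold change of -0.48 ± 0.20 did not pass (unadjusted p = 0.0251, adjusted p = 0.585). The serine kinase PIM1, also downstream of STAT5, had 0.10 ± 0.21 (adjusted p = 0.948).

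Classical estrogen targets were described from a list chosen with earlier results of these data known, so its share of called genes is no independent test. It held 62 genes, of which 47 were tested. Of these, 7 rose (CISH, SLC22A5, TFAP2C, MYC, FHL2, STC2 and RBBP8) and 1 fell (IER3), against 0.307% of all genes called in either direction. The list's median log2 fold change was 0.10, with 28 members positive and 19 negative. A list of 17 tested estrogen-repressed genes had 0 called in either direction by edgeR or DESeq2 (0 higher and 1 lower at an unadjusted p under 0.05) and a median of -0.08.

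SLC22A5, the plasma membrane carnitine transporter, stood at 35.5, 32.5 and 35.9 CPM at 2 h, against 12.7, 9.95 and 13.6 CPM at 0 h. Its groups were well apart, with a log2 fold change of 1.52 ± 0.17 (edgeR adjusted p = 8.74e-06), and the siControl value was 1.59. STC2, a secreted glycoprotein that inhibits release of insulin-like growth factors from their binding proteins, stood at 500, 543 and 538 CPM at 2 h, against 327, 352 and 363 CPM at 0 h. Its rise was 0.60 ± 0.08 (adjusted p = 0.00026). FHL2, a LIM-domain cofactor, was 278, 290 and 308 CPM at 2 h against 176, 188 and 191 CPM at 0 h, a log2 fold change of 0.66 ± 0.10 (adjusted p = 0.00043). RBBP8, which starts the resection of DNA ends in homologous recombination, was 187, 195 and 186 CPM at 2 h against 153, 113 and 118 CPM at 0 h (0.56 ± 0.12, adjusted p = 0.0339). RBBP8 was the 1 called of 28 tested members of the recombination and Fanconi list, whose median was -0.06.

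The receptor itself and several textbook targets did not pass the test at this time. ESR1 stood at 86.5, 87.6 and 93.7 CPM at 2 h and 97.5, 92.7 and 96.1 CPM at 0 h, with a log2 fold change of -0.10 ± 0.12 (adjusted p = 0.918). GREB1, an estrogen-induced receptor cofactor, was low, at 2.13, 2.74 and 3.07 CPM at 2 h and 1.20, 2.03 and 2.18 CPM at 0 h (0.55 ± 0.46, adjusted p = 0.847). The libraries of the 2 groups overlapped for both genes. PGR, the progesterone receptor, had 5 counts in replicate 1 of sip53 2 h and 0 in the other 17 libraries, and it was not tested. CCND1, the G1 cyclin, was 604, 598 and 615 CPM at 2 h and 522, 440 and 486 CPM at 0 h; its libraries did not overlap, but its log2 fold change of 0.33 ± 0.11 had an adjusted p of 0.386. At 8 h GREB1 reached 1.51 ± 0.45 over 0 h on the log2 scale (adjusted p = 0.0748) and CCND1 reached 0.40 ± 0.11 (adjusted p = 0.0385).

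Transcription factors formed the next group. TFAP2C, the AP-2 gamma factor that helps estrogen receptor bind chromatin in breast cancer cells, stood at 511, 544 and 565 CPM at 2 h, against 226, 270 and 266 CPM at 0 h. Every 2 h library was above every 0 h library, and the log2 fold change was 1.09 ± 0.09 (edgeR adjusted p = 9.75e-08). It was the 1 called of 24 tested receptor and coregulator genes, 17 of which had a negative log2 fold change (median -0.10). GATA3, another luminal factor of that list, stood at 12.5, 16.2 and 14.4 CPM at 2 h against 7.98, 7.49 and 7.77 CPM at 0 h, without overlap. Its log2 fold change of 0.89 ± 0.20 fell just short of the threshold (adjusted p = 0.0528), and the siControl value was 0.86 (adjusted p = 0.0718).

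SOX7, an SRY-box factor best known from endothelium and endoderm, stood at 31.1, 34.8 and 38.7 CPM at 2 h, against 8.88, 12.1 and 10.6 CPM at 0 h (log2 fold change 1.73 ± 0.20, adjusted p = 1.86e-05). SOX9, a progenitor factor of many epithelia, was 66.8, 52.8 and 53.4 CPM at 2 h against 34.1, 24.2 and 30.7 CPM at 0 h (0.96 ± 0.16, adjusted p = 0.00199). These were the 2 called of 36 tested homeobox and developmental factors, whose median was -0.08. IRX3, an Iroquois homeobox factor outside that list, rose by 0.75 ± 0.11 (adjusted p = 0.000271), and its 2 h libraries of 68.2 to 84.1 CPM lay above the 0 h libraries of 44.2 to 48.8 CPM. Among 12 tested Kruppel-like factors KLF4 was called, at 39.2, 44.3 and 40.4 CPM at 2 h against 20.6, 16.7 and 19.0 CPM at 0 h (1.14 ± 0.18, adjusted p = 0.00147). KLF7 had 0.51 ± 0.13 (adjusted p = 0.147) in sip53 and was called in siControl (0.67, adjusted p = 0.0327).

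MYC, a driver of growth and an early target of estrogen in breast cancer cells, stood at 30.9, 37.5 and 31.1 CPM at 2 h, against 16.4, 15.2 and 16.8 CPM at 0 h. The groups were apart, with a log2 fold change of 1.04 ± 0.22 (edgeR adjusted p = 0.0386), but the call was lost when any 1 of the 6 libraries was left out (adjusted p up to 0.23). The siControl log2 fold change was 1.00 (adjusted p = 0.0683). MYC stood there at 26.0, 26.2 and 26.3 CPM at 2 h, against 16.5, 5.77 and 16.5 CPM at 0 h. The low 0 h replicate 2 raises that value. MYC was the 1 called of 25 tested cyclins and G1 regulators (median -0.01), and the 34 tested ribosome biogenesis genes, a group that MYC is known to raise, had 0 called by edgeR or DESeq2 (1 at an unadjusted p under 0.05) and a median of 0.01.

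Of 21 tested immediate-early genes, which growth factors induce within minutes, EGR1 and CCN1 were called higher and IER3 lower, with a list median of 0.05. EGR1, a zinc-finger factor, was 37.4, 43.1 and 48.6 CPM at 2 h against 23.9, 30.5 and 23.1 CPM at 0 h (0.74 ± 0.14, adjusted p = 0.0151). CCN1, a secreted matricellular protein, was 233, 256 and 218 CPM at 2 h against 117, 126 and 123 CPM at 0 h (0.95 ± 0.17, adjusted p = 0.00518). Neither gene's groups overlapped. The AP-1 genes FOS (0.42 ± 0.37, adjusted p = 0.864) and JUN (-0.05 ± 0.11, adjusted p = 0.951) were not called, and 0 of 15 tested feedback regulators of the MAP kinase pathway were by edgeR or DESeq2 (2 higher and 1 lower at an unadjusted p under 0.05).

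F3 encodes tissue factor, the cell surface trigger of blood clotting. It stood at 82.1, 79.6 and 74.5 CPM at 2 h, against 28.3, 28.0 and 26.0 CPM at 0 h. The replicates of each group were close together, and the log2 fold change was 1.52 ± 0.14 (edgeR adjusted p = 9.11e-07), against 0.91 in siControl. The mean levels were lower in sip53, at 78.7 CPM at 2 h and 27.5 CPM at 0 h. In siControl they were 99.3 and 52.7 CPM. F3 and CCN1 were the 2 called of 19 tested YAP and TEAD targets (median 0.05). Of the 19 log2 fold changes 11 were positive and 8 negative, and at an unadjusted p under 0.05 the list had 3 higher and 4 lower. Among the 17 not called were ANKRD1 (0.65 ± 0.21, adjusted p = 0.392), CCN2 (0.33 ± 0.17, adjusted p = 0.695) and TGFB2 (-0.47 ± 0.44, adjusted p = 0.873), the lowest of the list.

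The F3 promoter is shown because it holds AP-1-type letters as well as the core GGTCA of an estrogen response element. The stretch is from RefSeq (GRCh38.p14), chr1:94541850-94542009, minus strand, 250 to 91 bases before the start, with TGANTCA and the reverse complement of GGTCA in capitals.
F3: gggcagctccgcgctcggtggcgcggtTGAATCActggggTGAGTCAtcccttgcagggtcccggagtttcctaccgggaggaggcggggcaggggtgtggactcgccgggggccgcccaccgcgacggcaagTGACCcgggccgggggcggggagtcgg
It held 2 copies of TGANTCA and 1 core.

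Promoter windows of 300 bases (250 before to 50 after the start) were found for 31 of the 46 called genes with a symbol, 27 higher and 4 lower, and both strands were searched. The full palindromic estrogen response element, 2 inverted cores 3 bases apart, was in 0 of the 27 and in 0.0659% of 27305 promoters. The core GGTCA alone was in 8 of the 27 (29.6%) and in 37.7% of all promoters, and its longer form AGGTCA in 0 of 27 and 13.9% of all. TGANTCA was in 2 of the 27 (7.41%; F3 and SLC29A3) and in 7.76% of all. The letters TTCNNNGAA, searched after CISH had been seen, were in 7 of the 27 (25.9%; ANXA1, BDNF, CISH, EGR1, FHL2, RASGRP1 and RBBP8) and in 7.88% of all. These are descriptions of letters near the first listed start of each gene, and other starts and distant sites were not searched. For some genes, RBBP8 and KAZN among them, that start lies well inside the annotated gene.

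The neurotrophin BDNF was 35.8, 33.3 and 27.8 CPM at 2 h against 21.9, 21.4 and 13.9 CPM at 0 h (0.76 ± 0.17, adjusted p = 0.0425). RASGRP1, an activator of Ras, stood at 46.5, 49.3 and 42.3 CPM at 2 h, against 20.4, 16.9 and 17.6 CPM at 0 h. Its log2 fold change of 1.33 ± 0.13 (adjusted p = 1.61e-06) was close to the siControl value of 1.28.

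ARHGAP26, a GTPase-activating protein (1.18), and PELI1, a Pellino ubiquitin ligase (0.997), also rose on the log2 scale. PAG1, an adaptor that recruits the kinase CSK, was 2.46-fold higher. LYPD6B, a protein of the LY6 family (1.15), ANXA1, a phospholipid-binding annexin (0.41), and EEIG1, named early estrogen-induced gene 1 (0.57), rose too. TGFA, a ligand of the EGF receptor, stood at 83.4, 76.6 and 77.3 CPM at 2 h against 59.4, 60.0 and 56.0 CPM at 0 h. It had no overlap but missed the threshold (0.44 ± 0.10, adjusted p = 0.057), and 0 of 11 tested members of the EGF receptor list were called by edgeR (1 by DESeq2, and 1 higher and 2 lower at an unadjusted p under 0.05).

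Channels, transporters and metabolic enzymes followed. SCNN1G, the gamma subunit of the epithelial sodium channel, was near the detection limit at 0 h. It stood at 5.34, 2.00 and 3.88 CPM at 2 h, against 0.200, 0.428 and 0.104 CPM at 0 h (log2 fold change 3.89 ± 0.57, edgeR adjusted p = 0.000509). KCNF1, a modulatory potassium channel subunit, was 5.69, 3.37 and 6.59 CPM at 2 h against 0.998, 0.535 and 1.14 CPM at 0 h (2.53 ± 0.38, adjusted p = 0.000726). Both were low in all libraries, although all their 2 h libraries were above all their 0 h libraries.

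PFKFB3, which makes the glycolysis activator fructose 2,6-bisphosphate, stood at 20.4, 21.6 and 18.4 CPM at 2 h, against 7.39, 7.06 and 8.71 CPM at 0 h. The log2 fold change was 1.38 ± 0.17 (edgeR adjusted p = 4.77e-05), and PFKFB3 was the 1 called of 29 tested glycolysis and hypoxia genes (median 0.06). SLC2A1, the glucose transporter, had 0.28 ± 0.11 (adjusted p = 0.563) in sip53. In siControl SLC2A1 was called higher (0.64, adjusted p = 0.0128) and PFKFB3 was not called (0.45, adjusted p = 0.336). LPIN1, a phosphatidate phosphatase, rose by 0.47 ± 0.10 (adjusted p = 0.0425) as the 1 called of 25 tested genes of the cholesterol list, which it is placed in as a target of the sterol regulatory factors. Its call was lost in 5 of 7 other settings, among them both other scalings. The organic cation transporter SLC22A3 rose by 0.94 ± 0.18 (adjusted p = 0.0151) and the nucleoside transporter SLC29A3 by 1.07 ± 0.20 (adjusted p = 0.0109).

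RETREG1, a receptor for autophagy of the endoplasmic reticulum, stood at 130, 133 and 130 CPM at 2 h, against 38.3, 46.8 and 44.0 CPM at 0 h. Its 2 h replicates were close together, with a log2 fold change of 1.61 ± 0.12 (edgeR adjusted p = 1.88e-08). Of 20 tested chaperones of the unfolded protein response, 0 were called by edgeR or by DESeq2 (1 higher and 1 lower at an unadjusted p under 0.05), with a median of -0.03. Besides PELI1, the genes that rose included LONRF2 (3.45-fold), RNF223 (3.25-fold) and TRIM55 (2.02-fold), which encode proteins of ubiquitin ligase families. LONRF2 stood at 20.5, 22.3 and 18.6 CPM at 2 h against 6.49, 6.32 and 4.98 CPM at 0 h.

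Of the remaining genes that rose, the matrix cross-linking enzyme LOXL4 (1.03), the desmosome-associated KAZN (0.51), the membrane protein TMCC3 (0.84) and the corepressor scaffold SIN3B (0.63) rose on the log2 scale. The general epithelial and carcinoma list of 20 tested genes had a median of 0.03. The mesenchymal and matrix list of 20 had 7 positive and 13 negative values and a median of -0.05, and 0 genes were called in either list by edgeR or DESeq2. At an unadjusted p under 0.05 the epithelial list had 1 higher and 1 lower, and the mesenchymal list 0 higher and 1 lower.

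MIR205HG, the host transcript of a microRNA of epithelial cells, stood at 389, 344 and 370 CPM at 2 h, against 173, 196 and 177 CPM at 0 h. Its log2 fold change was 1.01 ± 0.12 (edgeR adjusted p = 2.18e-05). The mature microRNA was not measured by these libraries; its sequence from RefSeq (GRCh38.p14, chr1:209432166-209432187, plus strand) is shown with the seed, bases 2 to 8, in capitals, to identify what the host transcript carries.
hsa-miR-205-5p: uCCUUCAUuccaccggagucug

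**Figure D2:**
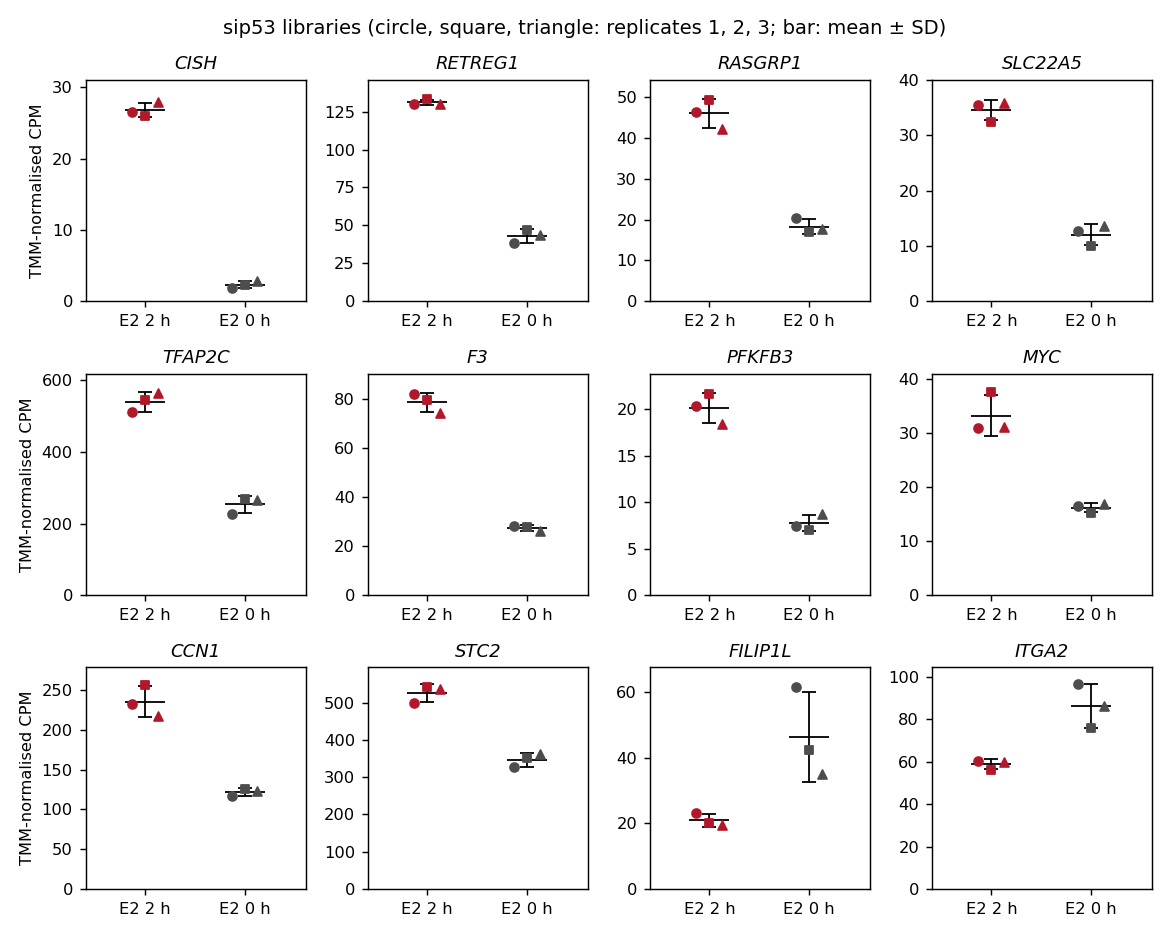
TMM-normalised CPM of 12 genes in each sip53 library, with E2 2 h on the left and E2 0 h on the right of each panel. Circles, squares and triangles are replicates 1, 2 and 3, and the bars are the mean ± SD (n = 3 each). In all 12 panels the groups are apart, with 10 genes higher and FILIP1L and ITGA2 lower at 2 h.

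The 6 genes that fell were FILIP1L, FIGN, ITGA2, PARD6B, TM4SF1 and IER3, and all but FILIP1L lost their calls in 4 or 5 of the 6 fits that left out 1 library. FILIP1L, a filamin-interacting protein linked to reduced cell migration, stood at 23.2, 20.2 and 19.4 CPM at 2 h, against 61.7, 42.5 and 35 CPM at 0 h. Its 0 h replicates were widely spread, with replicate 1 highest, and the log2 fold change was -1.15 ± 0.20 (edgeR adjusted p = 0.00401). FIGN, a microtubule-severing enzyme, was 19.7 to 20.7 CPM at 2 h against 36.8, 33.8 and 31.3 CPM at 0 h (-0.76 ± 0.15, adjusted p = 0.0151). ITGA2, the alpha 2 subunit of a collagen-binding integrin, was 60.5, 56.2 and 60.0 CPM at 2 h against 96.5, 76.0 and 86.5 CPM at 0 h (-0.55 ± 0.11, adjusted p = 0.0176). PARD6B, a polarity protein, stood at -0.55 ± 0.12 and TM4SF1, a tetraspan surface protein, at -0.43 ± 0.09. IER3, an early response gene that the estrogen-induced list holds, was 41.0, 36.1 and 40.1 CPM at 2 h against 55.0, 61.5 and 67.3 CPM at 0 h (-0.65 ± 0.14, adjusted p = 0.0386). Replicate 1 of sip53 0 h was the highest of the 3 for FILIP1L, FIGN, PARD6B and ITGA2, and the part that this library has in those 4 values was not tested beyond leaving it out. Without it FIGN, PARD6B and ITGA2 lost their calls, 6 genes were called lower, 3 of them shared with the 6 above, and 36 were called higher, 31 of them shared with the 41. The count of lower genes was 3 without sip53 0 h replicate 3 and 2 without any of the 3 sip53 2 h replicates left out in turn.

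The call of 27 of the 47 genes, 26 higher and FILIP1L, was kept whichever of the 6 libraries was left out. CCN1 lost it in 1 of the 6 fits, without sip53 2 h replicate 2 (adjusted p = 0.0525). BDNF, EEIG1, EGR1, FIGN, KAZN, SIN3B, SLC22A3, SLC29A3 and TMCC3 kept it in 2 of the 6, and ANXA1, IER3, ITGA2, LPIN1, PARD6B, RBBP8 and TM4SF1 in 1. MYC, PAG1 and LYPD6B kept it in 0 (adjusted p up to 0.23, 0.324 and 0.202). Under 7 other settings of the fit, 12 of the 47 lost their call in at least 1. These were LPIN1 in 5 settings, PAG1 and ANXA1 in 3, EEIG1 and PARD6B in 2, and BDNF, IER3, LYPD6B, MYC, SIN3B, TM4SF1 and TMCC3 in 1. None of the 47 changed direction in any of these 13 fits.

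Of 37 tested targets of p53, 0 were called in either direction by edgeR or DESeq2 (2 higher and 4 lower at an unadjusted p under 0.05). Of their log2 fold changes 18 were positive, 18 negative and 1 at 0.00, which was also the median. CDKN1A, the p21 cell cycle inhibitor, stood at 11.7, 9.58 and 10.0 CPM at 2 h, against 12.4, 13.4 and 14.9 CPM at 0 h. Its libraries did not overlap, but the log2 fold change of -0.37 ± 0.18 did not pass (unadjusted p = 0.044, adjusted p = 0.661). BTG2 (-0.65 ± 0.40) and SESN1 (0.41 ± 0.25) marked the ends of the list, both with an adjusted p of 0.765.

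Other pathways also had 0 called members by edgeR, and by DESeq2 except for 1 lower heat shock gene and 1 higher gene of the TGF-beta and BMP list. The 40 tested cytosolic ribosomal proteins had 37 positive values with a median of 0.09, the 32 nuclear-encoded oxidative phosphorylation genes a median of 0.06, and the 26 genes of the ATF4 stress response 21 positive values with a median of 0.10. The 24 cytosolic heat shock genes had a median of -0.14, with 1 higher and 5 lower at an unadjusted p under 0.05, among them HSPA1A, which stood at 88.0, 89.5 and 99.6 CPM at 2 h against 132, 122 and 139 CPM at 0 h (-0.51 ± 0.13, adjusted p = 0.133). DNA replication (41 tested, median 0.00), mitosis (33, -0.07), interferon response (25, 0.06), NF-kB and inflammation (22, 0.02), BCL2 family (18, 0.05), TGF-beta and BMP (26, -0.05), and retinoid, glucocorticoid and clock genes (30, -0.01) lay on either side of 0. At an unadjusted p under 0.05 these lists each had 0 to 3 members in either direction, and the ATF4 list had 4 higher. Of all 15318 genes, 7465 had a positive and 7820 a negative log2 fold change. Beside the median of -0.006 over all genes, these medians were small, and no list is called different from other genes here.

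**Figure D3:**
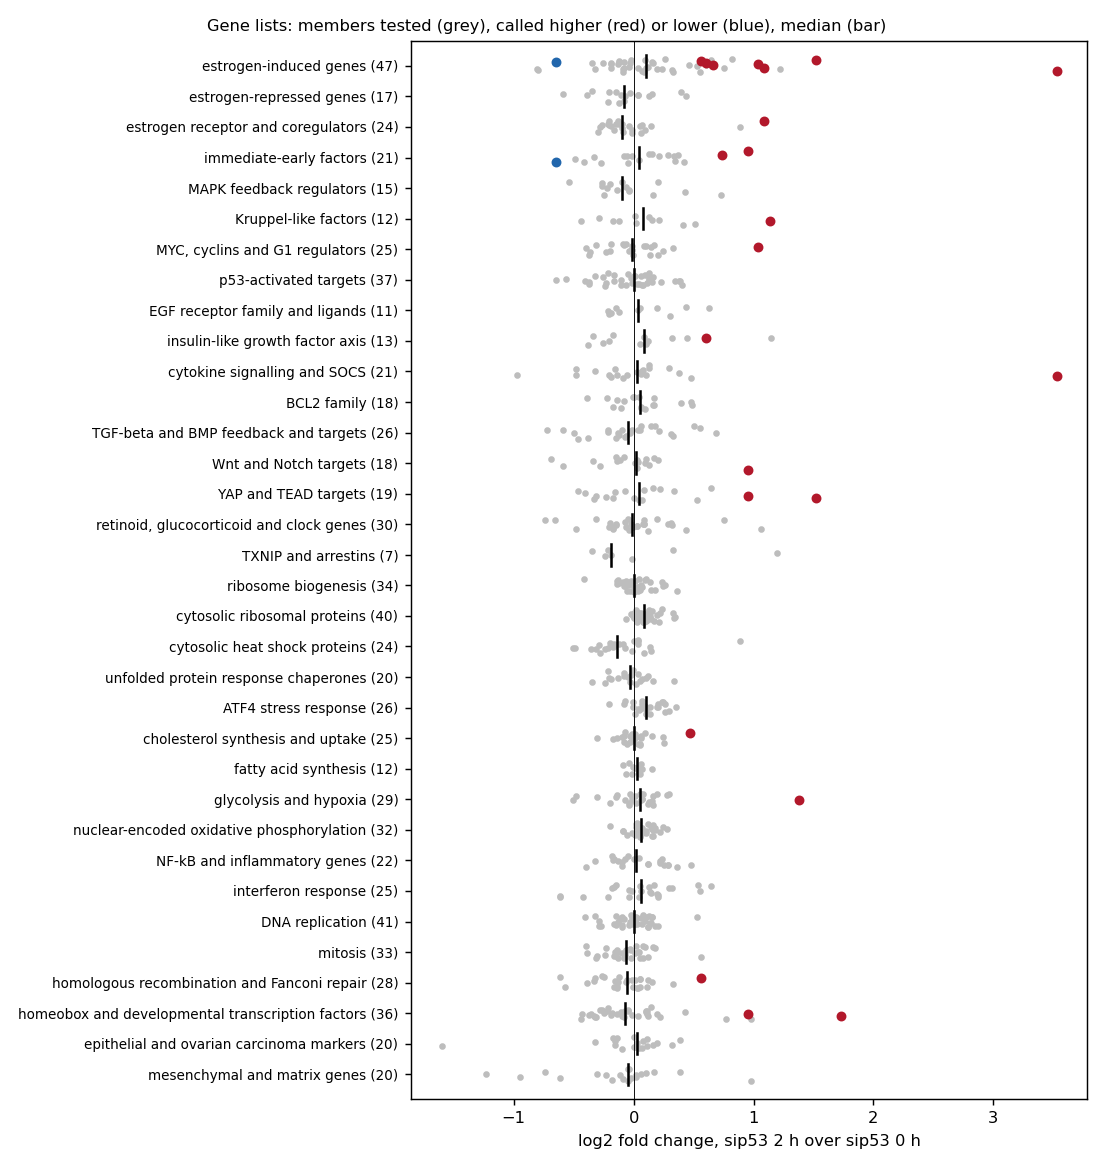
Log2 fold change of sip53 2 h over sip53 0 h for the tested members of 34 gene lists, with the number tested in brackets. Grey points are members not called, red points members called higher, blue points members called lower, and the black bar is the list's median. The estrogen-induced list holds 7 red points and 1 blue point, whereas most lists hold 0 or 1. The lists were chosen with earlier results of these data known.

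The same contrast in siControl cells asked whether the early response was also present without p53 knockdown. There 35 genes were higher (0.228% of those tested) and 0 lower (773 at an unadjusted p under 0.05, and 29 by DESeq2). Single libraries moved that count: it was 112 higher and 32 lower without siControl 0 h replicate 1, and 19, 18 and 16 higher without siControl 0 h replicate 2, 2 h replicate 2 and 2 h replicate 3. Of the genes called higher, 21 were called in both arms, 51.2% of the sip53 list and 60.0% of the siControl list. All 41 genes higher in sip53 had a positive log2 fold change in siControl, and all 6 lower genes a negative one. All 35 genes higher in siControl were positive in sip53. The share of all genes with the same sign in both arms was not counted.

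The difference between the arms was tested directly as an interaction, and 0 genes passed in either direction by edgeR (203 higher and 248 lower at an unadjusted p under 0.05, and 1 higher and 0 lower by DESeq2). The smallest adjusted p of the difference was 1. Of the 47 genes, 9 had an unadjusted p under 0.05 for the difference, each with the larger change in sip53. The 47 were chosen by their sip53 values, which the difference also contains, so the choice favoured that direction. Genes called only in siControl also had the larger change there at an unadjusted p of the interaction under 0.05. These were POFUT1 (0.0126), IFNGR1 (0.019), NMU (0.0254), MGST1 (0.0298), SLC39A14 (0.0329), SLC2A1 (0.0393) and ABCC1 (0.0433). Their choice by siControl values favoured that arm in the same way. PFKFB3 was 20.4, 21.6 and 18.4 CPM at 2 h against 7.39, 7.06 and 8.71 CPM at 0 h in sip53, and 13.9, 11.1 and 14.1 CPM at 2 h against 8.91, 11.5 and 8.19 CPM at 0 h in siControl (unadjusted p = 0.000948). Others of the 9 were F3 (0.00535), TFAP2C (0.00767), SIN3B (0.00801), ITGA2 (0.00855), FIGN (0.022), MIR205HG (0.0371) and SLC29A3 (0.0372) by unadjusted p.

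The larger log2 fold change was in sip53 for 35 of the 41 genes higher there, and in siControl for 20 of the 35 genes higher there, as choosing genes in 1 arm favours that arm. When genes were instead chosen by the mean E2 effect of the arms, an alternative added after seeing the data, 135 were higher. Of these, 57 had the larger change in sip53 and 78 in siControl, with median log2 fold changes of 0.53 in sip53 and 0.63 in siControl. The 71 lower genes had the larger change in sip53 for 39 and in siControl for 32, with medians of -0.48 and -0.44.

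**Figure D4:**
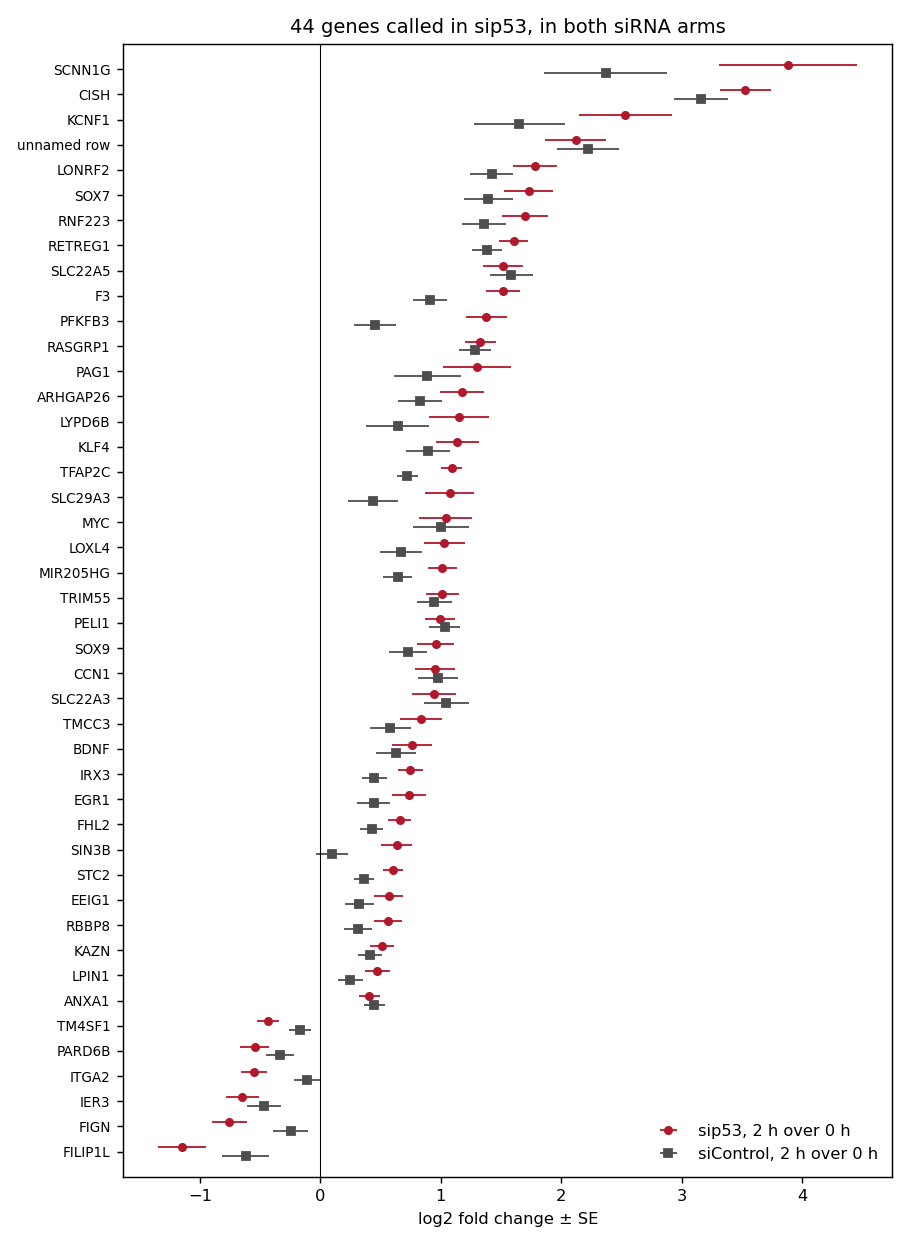
Log2 fold change ± SE of 2 h over 0 h for 44 of the 47 genes called in sip53, in sip53 (red circles) and siControl (grey squares). All 38 higher genes drawn lie to the right of 0 and all 6 lower genes to the left in both arms; the genes were chosen by their sip53 values, so the sip53 points tend to lie farther out.

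By 8 h in sip53 cells the genes that had risen at 2 h took different courses. These comparisons share the 0 h or the 2 h libraries with the one above, and genes picked for being high at 2 h are more likely to be lower later. Against 2 h, 126 genes of all tested were higher at 8 h (0.823%) and 85 lower (0.555%), with 61 and 44 when sip53 2 h replicate 2 was left out. Of the 41 genes, 10 were lower at 8 h than at 2 h, 6 were higher and 25 were not called. Against 0 h, where 1.55% of all genes were higher and 1.18% lower, 32 of the 41 were still higher and 9 were not called.

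The 10 genes that were lower again included the 4 transcription factors SOX7, SOX9, TFAP2C and EGR1. RETREG1 had 59.6, 69.3 and 61.6 CPM at 8 h (log2 fold change over 2 h of -1.04, edgeR adjusted p = 1.9e-05), and it stayed above the 0 h libraries. SOX7 stood at 18.5, 14.3 and 16.9 CPM at 8 h and TFAP2C at 374, 365 and 423 CPM, each between its 0 h and 2 h values. SOX9, CCN1, EGR1 and TMCC3 were back near 0 h, with log2 fold changes of 8 h over 0 h of 0.00, -0.11, 0.00 and -0.09. PFKFB3 was 9.24, 9.10 and 9.78 CPM at 8 h. LPIN1 was also in this group.

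The 6 genes that went on rising included LOXL4, SLC22A3, IRX3, STC2 and KAZN. LOXL4 had 88.8, 75.5 and 92.1 CPM and STC2 had 710, 778 and 721 CPM at 8 h, all above their 2 h libraries. CISH, at 22.2, 19.7 and 26.1 CPM, and MYC, at 33.2, 40.2 and 42.1 CPM, were not called between 2 h and 8 h. Of the 6 genes lower at 2 h, FILIP1L, FIGN, ITGA2 and PARD6B were still lower than 0 h at 8 h, and TM4SF1 and IER3 were not called.

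**Figure D5:**
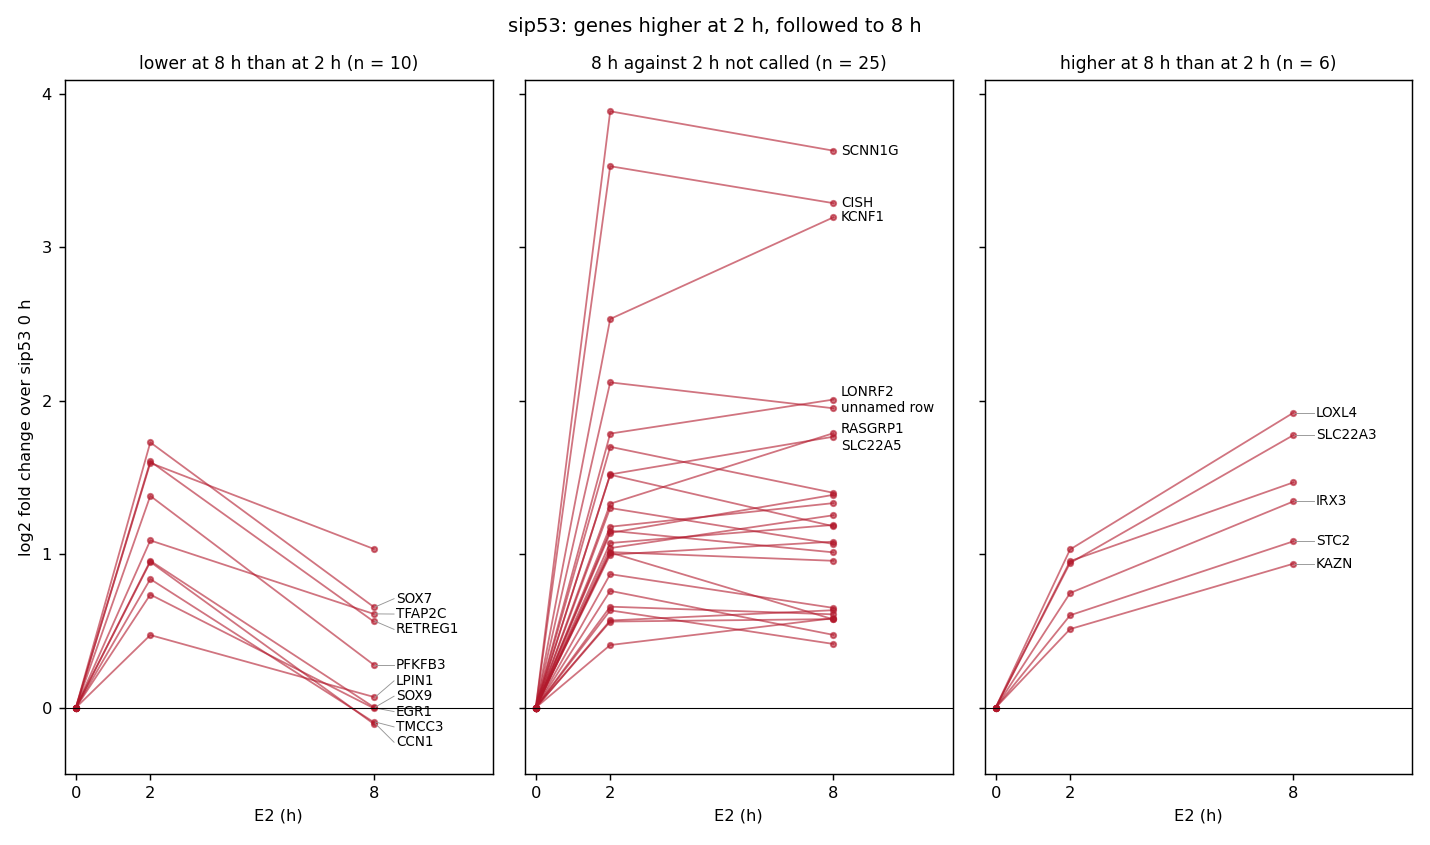
Log2 fold change over sip53 0 h at 0, 2 and 8 h of E2 for the 41 genes higher at 2 h, split into the 10 lower at 8 h than at 2 h, the 25 not called and the 6 higher. Lines join the fitted values of a gene, and not every line carries a name. SOX9, EGR1, TMCC3 and CCN1 end near 0, whereas LOXL4 reaches 1.92 at 8 h.

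Some counts could include reads of overlapping genes, because the sources used here do not give the strand setting of the counting. Of the 46 called genes with a symbol, 29 overlap another annotated gene, 11 on the same strand and 26 on the opposite strand. There were 56 such overlaps, and in 51 the partner was not among the genes tested, matched by symbol, so its reads could not be set beside those of the called gene. The other 5 partners were not called, and 3 of them had the sign of the gene they overlap. MAPKAPK3, opposite CISH, had a log2 fold change of 0.12 ± 0.11 and CMSS1, opposite FILIP1L, -0.07 ± 0.12. PINX1, on the same strand as SOX7, had -0.03 ± 0.14 and SOX9-AS1, opposite SOX9, -0.06 ± 0.20. IER3-AS1, opposite IER3, had -0.49 ± 0.72 at a mean of 0.579 CPM at 2 h and 0.83 CPM at 0 h.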

How the data were processed

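The library kit was QuantSeq 3' mRNA-Seq V2 FWD, per the labels' protocols. The authors deposited expected counts for each gene; RSEM 1.3.3, Bowtie2, cutadapt, MultiQC and hg19 are named per the submitters' processing notes. The values were already whole, so rounding changed 0. Rows were named through GENCODE v29 transcripts (GRCh38) and current symbols, and 0.635% of counts fell in rows without a gene. All 18 samples were fitted in edgeR 4.0.16 (R 4.3.3): filterByExpr with a minimum count of 10 (15318 genes), TMM scaling, and a quasi-likelihood model with 1 coefficient per group, tested on simulated data. A gene was called at a Benjamini-Hochberg adjusted p under 0.05. The common biological coefficient of variation, the spread between samples beyond counting noise, was 15.2%. DESeq2 1.42.0, other scalings, filters and left-out replicates were alternatives. Within-group pairs differed beyond counting noise (chi-square over its degrees of freedom was 4.04 to 22.87), so no library was a copy.

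The rule for named genes took the 15 per direction with the largest change among called genes without overlap whose average log2 CPM was 2 or more, up to 4 called members per direction of each list, and ESR1, GREB1, PGR, MYC, CCND1 and CDKN1A. It gave 30 of the 47 called genes, and any of the other 17 and uncalled list members given were named after their values were seen. The samples, lists and rule were chosen with earlier results of these data known. The level of the siRNA's target and the values of some called genes are not reported here.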

Additional observations from a re-analysis of the deposited data

How the results depend on the processing

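The 41 genes higher and 6 lower at 2 h in sip53 became 87 and 117 with no filter on low counts, 65 and 29 by DESeq2, and 13 lower in a fit of only the groups compared. Leaving out 1 replicate gave 28 to 36 higher and 2 to 8 lower. For siControl (35 higher, 0 lower) the counts were 164 and 121 with no filter, 101 and 29 by DESeq2, 12 and 1 with only the groups compared, and 1 lower under upper-quartile scaling or a minimum count of 30. Leaving out a siControl replicate gave 16 to 112 higher and 0 to 32 lower; siControl 0 h replicate 1 gave 112 and 32, and 0 h replicate 2 gave 19 higher. The difference between arms gave 14 higher and 22 lower with no filter, 1 higher by DESeq2, and 0 without any replicate. For 8 h against 2 h (126 and 85) the counts were 264 and 139 with no filter, 224 and 151 with only the groups compared, 227 and 179 by DESeq2, and 61 to 107 and 44 to 62 leaving out 1 replicate. For 8 h against 0 h (238 and 181) they were 374 and 327 with no filter, 86 lower with only the groups compared, 292 lower by DESeq2, and 140 to 186 and 69 to 157 leaving out 1 replicate. The cause was not tested, beyond the fewer samples or other genes tested in each. For the 47 genes called at 2 h in sip53, 13 alternatives (6 left-out libraries and 7 other settings) gave 611 single-gene values; none reversed direction, 499 kept their call and 112 lost it. Among the 7 settings, a replicate block or only the groups compared lost 6 calls each, upper-quartile scaling 5, a minimum count of 30 lost 3 and RLE scaling 2. Single genes called in siControl or at 8 h were not followed across alternatives.

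Deviations of same-numbered 2 h and 0 h libraries had correlations of 0.011, -0.05 and 0.025 over all genes tested. Differently numbered libraries had -0.067 to 0.053. The replicate numbers thus showed no pairing by this measure, which does not exclude it. With a replicate block sip53 had 36 higher and 7 lower, siControl 28 and 0, the difference 0 and 0, 8 h against 2 h 121 and 84, and 8 h against 0 h 240 and 190.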
